A study of Mus musculus with 26 samples.

Results

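A set of 10 genes that damp signalling through the kinase ERK were examined in mouse embryonic stem (ES) cells of the E14 line. The cells were compared in 2 parallel states, pluripotent or exposed for 4 h to retinoic acid without the pluripotency signal. The members were 5 dual-specificity phosphatases (Dusp9, Dusp6, Dusp4, Dusp1 and Dusp5), 3 Sprouty genes (Spry1, Spry2 and Spry4) and 2 Sprouty-related genes (Spred1 and Spred2), taken by name and Ensembl identifier, 10 of 21938 protein-coding genes on the chromosomes. They were selected on their known function and on the RNA-seq difference of Dusp9 between the states in earlier results of these data, a difference that is not shown here. All ATAC-seq peaks and all regions with a changing enhancer state within 100 kb of each gene were then collected on GRCm38, which gave 382 of 180036 ATAC-seq sites and 1 of 327 regions.

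Cells in the pluripotent state, called mESC+, were kept with leukemia inhibitory factor (LIF), the cytokine that holds mouse ES cells undifferentiated. They were treated with LIF for 4 h in parallel with the other state. Cells called mESC- were exposed to 1 µM retinoic acid (RA) without LIF for 4 h. RNA-seq covered 3 libraries per state, ATAC-seq 1 library per state from 75000 cells each, and ChIP-seq 1 library per chromatin mark and state. All cells came from 1 line, and the 2 states differ in both LIF and RA, so the effects of the 2 cannot be told apart.

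Fibroblast growth factor receptors signal through Ras and Raf to ERK, and in mouse ES cells this cascade prepares the exit from naive pluripotency. Active ERK induces its own inhibitors. Dusp proteins remove the activating phosphates from ERK and related kinases, whereas Sprouty and Spred proteins act upstream, between the receptor, Ras and Raf. Dusp6 and Dusp9 act on ERK in the cytoplasm, and Dusp9 lies on the X chromosome. Dusp1, Dusp4 and Dusp5 are nuclear.

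The mESC+ list held 163484 ATAC-seq peaks with a median fold enrichment over background of 6.68, and the mESC- list held 141465 peaks with a median of 6.52. Fold enrichment is the height of a peak over the local background of its own library. Read depth was unknown, as the lists give no read numbers. Peaks of the 2 lists that overlapped by at least 1 bp formed 1 site, and 117520 sites lay in both lists. A ratio of mESC- to mESC+ fold enrichment is given on the log2 scale after subtraction of the median over all these sites, which was -0.09. With 1 library per state no difference between the states could be tested, so every ratio describes these 2 libraries, and a ratio past 1.5-fold is only called so by its size. Promoter peaks did not separate cell types. The ES cell genes Nanog, Esrrb, Zfp42, Klf4 and Tfcp2l1 had a peak within 1 kb of a start in both lists, but so did Gata4, Sox17, Cdx2, Pax6 and Myod1, which mark other lineages, while the liver gene Alb had none. This check was chosen after the data had been seen.

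The RNA-seq table listed 6 of the 10 members, against 9.04% of all protein-coding genes. It holds 2189 genes kept by the authors and gives for each a single mean over all 6 libraries, so neither the level in each state nor a spread could be given. The members were picked with this table in view, so the count of 6 is a description. Dusp9 had the highest level of the 6 per length, with an authors' mean of 2514 normalized counts per kb of exon, which placed it above 96.3% of the listed genes. Spry2 followed with 1617 per kb. Spred2 with 1173 and Dusp6 with 1164 per kb lay side by side. Dusp1 with 289 and Dusp5 with 233 per kb were far lower, yet both were above the median of the listed genes, 172 per kb. Dusp4, Spry1, Spry4 and Spred1 were not listed, which says nothing about whether they were transcribed. The steps between neighbours in this order could not be set against a replicate spread.

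All 10 members had an ATAC-seq peak within 1 kb of an annotated coding start in both states, as did 68.6% of protein-coding genes. The promoter peaks of the members had a median fold enrichment of 6.88 in mESC+ and 6.56 in mESC-, below the medians over all genes of 10.6 and 10.1. The centred ratio lay above 0 at 5 members and below 0 at 5, where 54.7% of all promoters lay above 0. For Dusp1 this count takes a peak at an annotated start far upstream, which is closest to the start of the neighbouring gene Ergic1. Measured at the site of both lists closest to the RefSeq start, 6 members lay above 0 and 4 below. By the strongest peak within 1 kb, the median ratio over the members was 0.02, and over all promoters also 0.02. None of the members was at least 1.5-fold higher in mESC-, against 1.01% of all promoters, and 1 of them, Dusp5, was at least 1.5-fold higher in mESC+, against 0.961%.

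**Figure D1:**
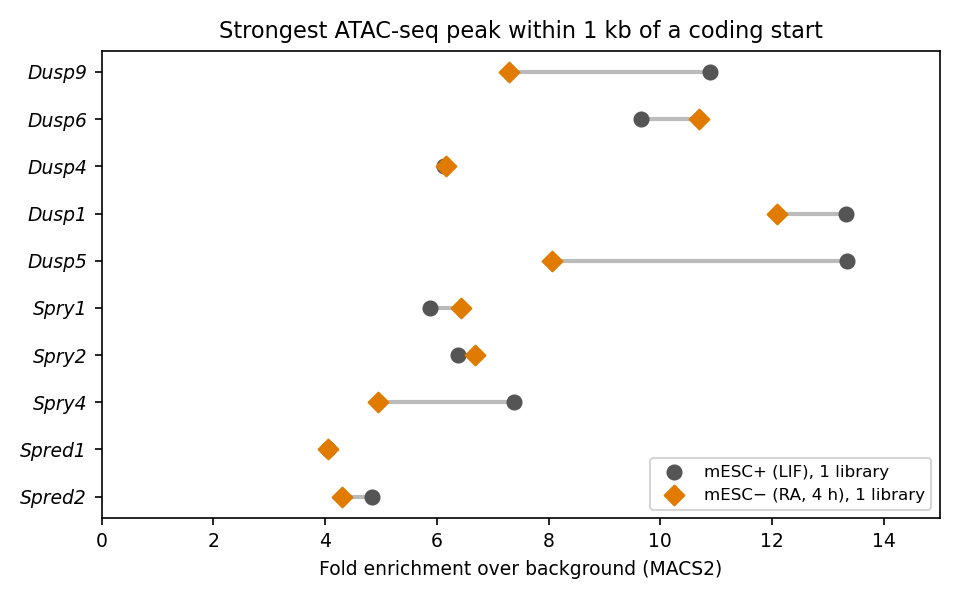
Fold enrichment of the strongest ATAC-seq peak within 1 kb of a coding start (x axis) for each member (rows) in the mESC+ library (grey circles) and the mESC- library (orange diamonds), with no error since each state has 1 library. The peaks of Dusp9, Dusp5 and Spry4 were weaker in mESC-, as were, by less, those of Dusp1 and Spred2. Dusp6, Dusp4, Spry1 and Spry2 lay slightly higher in mESC-, and Spred1 was at 4.05 in both. The Dusp1 value is from the peak at its upstream start, closest to the start of Ergic1.

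Dusp9, on the X chromosome at chrX:73639419-73643514 on the plus strand, had a promoter peak of 10.9 in mESC+ and 7.30 in mESC-. The peak stood at the 81.3 percentile of the mESC+ list and the 58.8 percentile of the mESC- list, and its centred ratio of -0.48 was lower than that of all but 2.03% of promoters. The strongest site around Dusp9 in mESC+, at 5848 bp from the RefSeq start and beyond the 3' end of the gene, was lower in mESC- too, at 13.4 and 9.32 (ratio -0.43). A site at -45951 bp differed less, at 12.6 and 10.4 (ratio -0.17). The largest ratio of the sites in both lists was 0.19, at -3797 bp, where the fold enrichment was 4.41 in mESC+ and 4.73 in mESC-. The highest mESC- value, 11.4, belonged to a site at 15025 bp that lies closer to the start of Pnck, a neighbouring kinase gene. None of the 18 sites of both lists around Dusp9 was past 1.5-fold, where 4.05% of all sites were higher in mESC- and 4.61% higher in mESC+ by that much. Of the 18, 6 had a ratio above 0 and 12 below.

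The 2 distal sites of Dusp9 that were strongest in mESC+ are given as 150 bases of GRCm38, plus strand, centred on the mESC+ summit. The upstream one is at chrX:73593318-73593467 and the downstream one at chrX:73645161-73645310. Capitals mark the AP-1 site TGANTCA.

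Dusp9 upstream site: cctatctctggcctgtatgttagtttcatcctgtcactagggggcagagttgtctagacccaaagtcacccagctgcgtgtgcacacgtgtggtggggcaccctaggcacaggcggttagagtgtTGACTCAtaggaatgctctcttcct

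Dusp9 downstream site: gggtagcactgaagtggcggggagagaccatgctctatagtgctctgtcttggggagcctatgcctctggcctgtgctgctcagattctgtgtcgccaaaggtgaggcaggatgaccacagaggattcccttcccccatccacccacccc

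The downstream sequence held none of the motifs searched, and the AP-1 site of the upstream one also occurs within 150 bases of the summit in 9.42% of all sites of both lists. In contrast to its 18 shared sites, Dusp9 had 8 sites in the mESC- list alone and 4 in the mESC+ list alone. The 8 made up 30.8% of the 26 mESC- peaks around the gene (exact 95% binomial interval 14.3 to 51.8%), against 14.1% of all mESC- peaks, and 5 of them were closest to the start of Dusp9 itself. Of the 8, 4 lay within 20 kb, among 8 mESC- peaks at that distance (50%, interval 15.7 to 84.3%). Those at -1767 and 4554 bp were closest to the start of Dusp9, and those at 14711 and 20497 bp to the start of Pnck. With an overlap of 50% of both peaks, 10 of the 26 lacked a mESC+ peak. This share of 38.5% had an interval of 20.2 to 59.4%, which covers the 24.9% of all mESC- peaks. All 8 sites were weak, with fold enrichments of 3.84 to 5.33 and -log10 q of 3.03 to 7.52. Among the 10 mESC- peaks around Dusp9 with a -log10 q of at least 10, 0 were without a mESC+ peak (interval 0 to 30.8%). The 4 mESC+ peaks without a partner were 18.2% of 22 (interval 5.19 to 40.3%), against 26.1% of all mESC+ peaks, and each was closer to the start of another gene. The intervals cover counting error only, and no test of Dusp9 against the other members was possible.

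**Figure D2:**
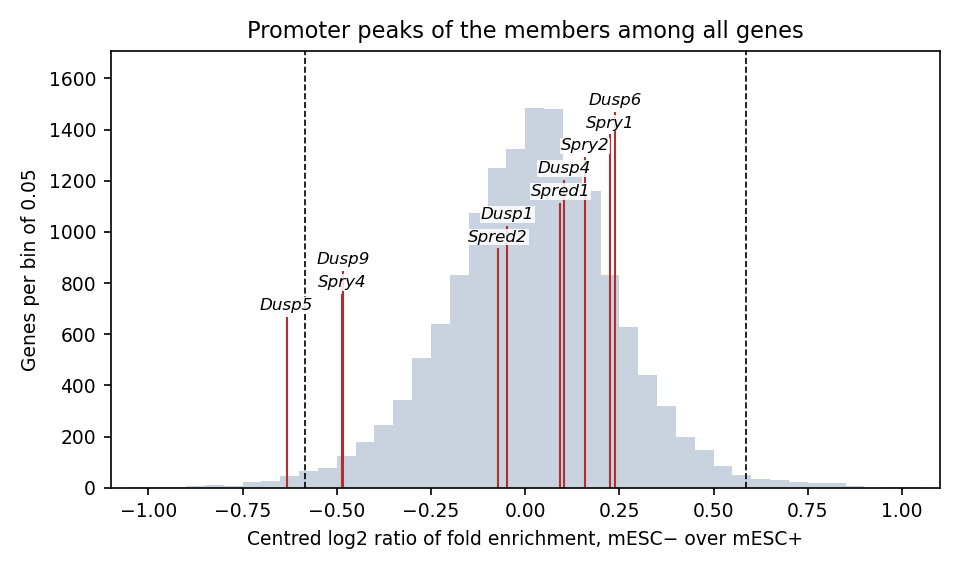
Histogram of the centred log2 ratio of promoter peak fold enrichment, mESC- over mESC+ (x axis), over protein-coding genes with a peak in both lists (y axis, genes per bin of 0.05), with red lines at the 10 members and dashed lines at 1.5-fold. Dusp5 at -0.63, Spry4 at -0.49 and Dusp9 at -0.48 lie in the lower tail, and the other 7 members between -0.07 and 0.24, with Dusp1 at its upstream start.

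Dusp6, a well known transcriptional target of ERK signalling, went the opposite way at its promoter, with a fold enrichment of 9.66 in mESC+ and 10.7 in mESC-. Its ratio of 0.24 was the highest of the 10 members by this measure and stood at the 85.5 percentile of all promoters, well inside the spread over genes, of which the middle 50% lay between -0.12 and 0.16, and short of 1.5-fold. The 250 bases before its RefSeq start, at chr10:99262981-99263230 on the plus strand, held no match to any motif searched.

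Dusp6 promoter: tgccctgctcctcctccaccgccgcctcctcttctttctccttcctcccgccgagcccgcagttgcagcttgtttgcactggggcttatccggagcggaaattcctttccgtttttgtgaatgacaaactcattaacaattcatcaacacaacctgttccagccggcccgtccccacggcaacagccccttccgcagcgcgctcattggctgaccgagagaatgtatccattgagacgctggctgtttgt

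Dusp6 was also the single member with a dynamic enhancer region within 100 kb, where 4.54% of all genes had one. This region of 1900 bp, at chr10:99352701-99354600, lies in the long noncoding RNA gene B530045E10Rik at 85212 bp from Dusp6, and no start of another protein-coding gene was closer to it. Enhancer probability, a value from 0 to 1 that the authors' classifier derived from histone marks, was 0.884 in mESC+ and 0.0096 in mESC-. The region is on the list because this value differed, so the difference is a description. The independent ATAC-seq readout did not follow it in size. The 1 site in the region was in both lists, with a fold enrichment of 15.7 in mESC+ and 13.4 in mESC- (ratio -0.13), at the 95.2 and 91.9 percentiles. It was the strongest mESC+ site around Dusp6. The 300 bases around its mESC+ summit, chr10:99353454-99353753, plus strand, are printed with the octamer ATGCAAAT, the motif of POU factors, in capitals. The octamer occurred in such windows at 2.98% of all sites of both lists.

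Dusp6 dynamic region: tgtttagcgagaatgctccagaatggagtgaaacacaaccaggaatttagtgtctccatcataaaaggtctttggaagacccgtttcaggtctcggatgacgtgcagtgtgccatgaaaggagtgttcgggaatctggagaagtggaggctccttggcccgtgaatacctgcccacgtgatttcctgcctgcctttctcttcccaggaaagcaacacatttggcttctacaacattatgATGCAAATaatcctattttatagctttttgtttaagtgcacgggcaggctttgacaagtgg

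A pair of neighbouring Dusp6 sites, at chr10:99229017-99229296 and chr10:99229349-99229537, had ratios of opposite sign. Whether the 2 are parts of 1 open stretch was not tested. At -34075 bp the fold enrichment was 7.001 in mESC+ and 10.3 in mESC- (ratio 0.65), and at -33788 bp it was 7.54 and 3.97 (ratio -0.83). A further site at -90975 bp, inside the centrosomal gene Poc1b, went from 5.34 to 8.15 (ratio 0.70). Of the 32 mESC- peaks around Dusp6, 18.8% had no mESC+ peak (interval 7.21 to 36.4%, against 14.1% of all mESC- peaks), and the strongest of them, 4.99, was at -97035 bp in Poc1b. The strongest mESC+ peaks without a partner, both 5.62, were at -18897 bp and at 97548 bp.

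Among the nuclear phosphatases, Dusp5 stood out at its promoter. The site over its start, centred at -151 bp, had a fold enrichment of 13.3 in mESC+, the highest promoter value of the members, and 6.91 in mESC-. The ratio of this site, -0.86, was lower than that of all but 0.170% of promoters measured at the 1 site closest to the RefSeq start. The strongest mESC- peak within 1 kb of the annotated start was another one, about 1 kb downstream, with 8.07. Set against this peak of another site, the promoter ratio was -0.63. That downstream site itself, centred at 978 bp, was at 6.12 in mESC+ and 8.07 in mESC- (ratio 0.49), and a peak at 251 bp was in the mESC- list alone, at 5.41. The lower value in mESC- was thus a feature of the site at -151 bp and not of every peak at the promoter. A site in the Dusp5 intron at 7632 bp went the other way, from 8.16 to 11.6 (ratio 0.60), as did one at -46436 bp, from 5.05 to 7.11 (ratio 0.59), just past 1.5-fold. The strongest Dusp5 peaks of 1 list alone were one of 4.68 in mESC+ at -29480 bp and one of 6.28 in mESC- at -88705 bp. The 250 bases before the Dusp5 start, chr19:53528895-53529144, plus strand, carried 2 adjoining CArG boxes, the sequence bound by serum response factor, which begin at -82 and -72. They are in capitals. A CArG box was found in 1.63% of all promoter windows and in no other of the 7 member windows.

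Dusp5 promoter: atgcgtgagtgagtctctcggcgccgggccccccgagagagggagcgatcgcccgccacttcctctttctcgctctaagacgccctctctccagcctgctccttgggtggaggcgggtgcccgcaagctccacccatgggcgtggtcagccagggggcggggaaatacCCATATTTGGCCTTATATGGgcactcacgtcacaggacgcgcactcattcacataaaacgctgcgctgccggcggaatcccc

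Dusp1, an immediate early phosphatase that also acts on p38 and JNK, has an annotated start about 53 kb upstream of its RefSeq start, beside Ergic1. The strongest peak by the promoter rule lay there, with 13.3 in mESC+ and 12.1 in mESC- (ratio -0.05). This peak overlaps Ergic1 and is closest to the start of that gene, so its value cannot be assigned to Dusp1 alone. The site at the RefSeq start was much weaker, with 5.81 in mESC+ and 6.06 in mESC- (ratio 0.15). Its 250 bases, chr17:26508473-26508722, minus strand, held a full cAMP response element TGACGTCA at -143, in capitals, as did 1.79% of all promoter windows.

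Dusp1 promoter: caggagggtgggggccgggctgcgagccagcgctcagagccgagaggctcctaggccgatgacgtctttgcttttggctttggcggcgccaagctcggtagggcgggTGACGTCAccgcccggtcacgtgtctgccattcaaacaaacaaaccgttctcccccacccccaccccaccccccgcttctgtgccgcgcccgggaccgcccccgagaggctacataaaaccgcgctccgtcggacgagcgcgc

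Around Dusp1, 4 of 25 sites of both lists were past 1.5-fold, 2 in each direction, where 4.05% of all sites were so in favour of mESC- and 4.61% in favour of mESC+. The highest ratio near any member, with 4.96 in mESC+ and 8.45 in mESC- (ratio 0.86), was at 76469 bp inside Neurl1b and closest to the start of that gene. The site at 18249 bp was at 10.6 and 5.84 (ratio -0.76) and that at -3021 bp at 7.99 and 4.50 (ratio -0.74). The strongest Dusp1 peaks of 1 list alone were one of 5.51 in mESC+ at 21028 bp and one of 5.33 in mESC- at 69305 bp. Dusp4 was even at its strongest promoter site, with 6.13 in mESC+ and 6.17 in mESC- (ratio 0.10). Weaker promoter peaks at -1035 bp and at 405 bp were in the mESC+ list alone, at 3.485 and 2.99. Within the gene, however, a site at 8756 bp that reached an exon had the lowest ratio of all 251 member sites, with 11.0 in mESC+ and 4.85 in mESC- (ratio -1.08). Its 150 bases, chr8:34816295-34816444, plus strand, held no motif searched. The highest Dusp4 ratio, 0.57, was at 10746 bp, with 3.47 and 4.83. Of 18 mESC- peaks around Dusp4, 2 lacked a mESC+ peak, 11.1% against 14.1% of all mESC- peaks, the stronger at -97333 bp with 4.74. Of 23 mESC+ peaks, 9 lacked a mESC- peak, 39.1% (interval 19.7 to 61.5%), an interval that covers the 26.1% of all mESC+ peaks, and the strongest, 7.86, was at 67399 bp in Tnks.

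Dusp4 intragenic site: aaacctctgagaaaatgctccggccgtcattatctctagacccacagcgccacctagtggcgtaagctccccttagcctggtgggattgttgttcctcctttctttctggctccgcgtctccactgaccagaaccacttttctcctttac

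**Figure D3:**
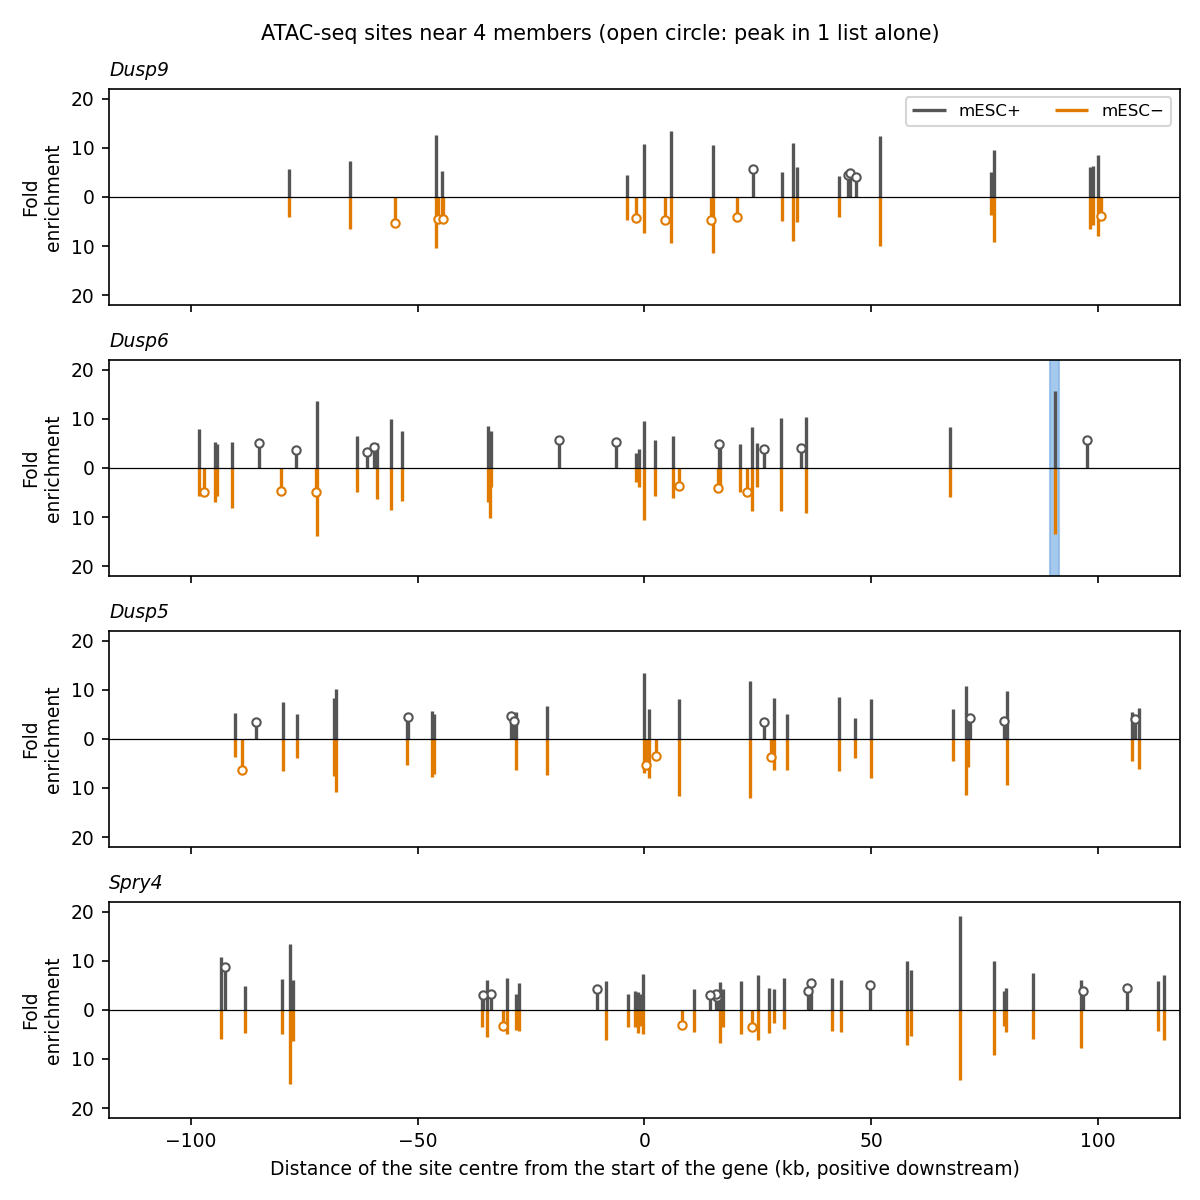
ATAC-seq sites around Dusp9, Dusp6, Dusp5 and Spry4 by distance of the site centre from the RefSeq start (x axis, kb, positive downstream), with fold enrichment (y axis) of mESC+ peaks upward and of mESC- peaks downward, open circles at peaks of 1 list alone and the dynamic region in blue. The tallest sites lie in both lists, and the 8 Dusp9 circles that point downward are all short.

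The Sprouty genes inhibit receptor signalling and were not alike at their promoters. Spry4 was at 7.38 in mESC+ and 4.94 in mESC- (ratio -0.49), lower than all but 2.00% of promoters. Spry2 was at 6.38 and 6.68 (ratio 0.16). At Spry1 the strongest peaks of the 2 lists, 5.88 and 6.44 (ratio 0.23), belonged to different sites, and the site of both lists nearest to the start was at 5.46 and 6.44 (ratio 0.33). Of 36 sites of both lists around Spry4, 2 were past 1.5-fold in favour of mESC+ and 0 the other way, against 4.61 and 4.05% of all sites. The larger, at -93246 bp in the gene Arhgap26, went from 10.7 to 5.94 (ratio -0.75). The strongest Spry4 site in mESC+, at 69553 bp, was at 19.0 and 14.2 (ratio -0.33). The strongest in mESC-, at -78156 bp and closest to the start of Arhgap26, was at 13.4 and 15.1 (ratio 0.27). No site around Spry1 or Spry2 passed 1.5-fold. The most extreme at Spry1 were at -69990 bp, with 13.2 and 9.01 (ratio -0.46), and at 65674 bp, with 5.68 and 7.89 (ratio 0.57). Those of Spry2 were at 72554 bp, with 7.13 and 4.74 (ratio -0.50), and at 34476 bp, with 3.84 and 5.38 (ratio 0.58), the latter the closest to 1.5-fold from below. The strongest Spry2 site, at 45226 bp, was at 17.9 and 18.4 (ratio 0.13). The strongest peaks of 1 list alone were 7.18 in mESC+ at -29765 bp and 4.25 in mESC- at 82756 bp for Spry1, and 6.51 in mESC+ at 59073 bp for Spry2. The strongest mESC- peak without a partner near Spry4 was 3.51, at 23801 bp.

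Spred1 and Spred2, which bring the Ras inhibitor neurofibromin to the membrane, had the lowest promoter values within 1 kb of a start. Spred1 was at 4.05 in both states (ratio 0.09), but a stronger site just beyond that limit, at -1154 bp, was at 8.23 in mESC+ and 9.66 in mESC- (ratio 0.33). Spred2 was at 4.83 and 4.31 (ratio -0.07). Spred1 had a strong distal site at 89823 bp, with 20.0 in mESC+ and 19.4 in mESC- (ratio 0.05), closest to the start of Fam98b. Among its 20 sites in both lists, 16 had a ratio above 0, the most one-sided split of the members, with a median of 0.16 and none past 1.5-fold. By that much, 4.05% of all sites of both lists were higher in mESC- and 4.61% higher in mESC+. Over the whole series, 58759 of 117520 sites of both lists had a ratio above 0. Several of the 20 were closest to the start of Fam98b. The ratios of the 20 reached from -0.32 at -70686 bp, with 6.49 and 4.86, to 0.57 at -74340 bp, with 7.56 and 10.5. The strongest Spred1 peaks of 1 list alone were 7.86 in mESC+ at -10427 bp and 5.93 in mESC- at -7237 bp. Spred2, the member with the most sites, 65, had 1 of 45 sites of both lists past 1.5-fold, against the same shares of all sites. That site, in an intron at 27385 bp, was at 4.70 in mESC+ and 7.20 in mESC- (ratio 0.71). The lowest Spred2 ratio was -0.37, at 71819 bp, with 5.10 and 3.71. The strongest Spred2 peaks of 1 list alone were 5.62 in mESC+ at -25707 bp and 5.59 in mESC- at 94017 bp. The site at 27385 bp is shown as chr11:19951719-19951868, plus strand. The spacing 5 and spacing 2 direct repeats of RARA::RXRA, the RA receptor pair, had no match in it.

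Spred2 intron site: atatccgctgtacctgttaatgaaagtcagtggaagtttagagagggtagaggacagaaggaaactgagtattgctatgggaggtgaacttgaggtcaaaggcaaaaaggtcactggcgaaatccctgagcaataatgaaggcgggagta

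Over all members, 7 of 251 sites of both lists were at least 1.5-fold higher in mESC-, against 4.05% of all sites, and 7 were at least 1.5-fold higher in mESC+, against 4.61%. The ratio was above 0 at 125 sites and below 0 at 126. Of 351 mESC+ peaks, 92 lacked a mESC- peak, 26.2% (interval 21.7 to 31.1%), and of 306 mESC- peaks, 39 lacked a mESC+ peak, 12.7% (interval 9.22 to 17.0%). Both shares were close to those of the whole lists, 26.1 and 14.1%. Peaks of 1 list alone were weak, with a median fold enrichment of 4.40 for the 92 and 4.37 for the 39. The highest of the 92 was 8.76, near Spry4 at -92391 bp but closest to the start of Arhgap26. The highest of the 39 was 6.73, near Spry2 at 11407 bp. The spacing 5 direct repeat of RARA::RXRA, searched on both strands in 300 bases around each summit, was in 0 of the 39 mESC- windows, 0 of the 92 mESC+ windows and 0 of the 251 windows of both lists. Over all sites it was in 1.24, 0.0704 and 0.260% of these classes. The spacing 2 repeat was in 1 of the 251 windows, 0.398% against 0.418% over all sites of both lists. That window lay inside Ergic1 at -72638 bp from the Dusp1 start, closest to the start of Ergic1. It was in 0 of the 39 and 0 of the 92 windows, against 1.37 and 0.312% over all sites of these classes.

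**Figure D4:**
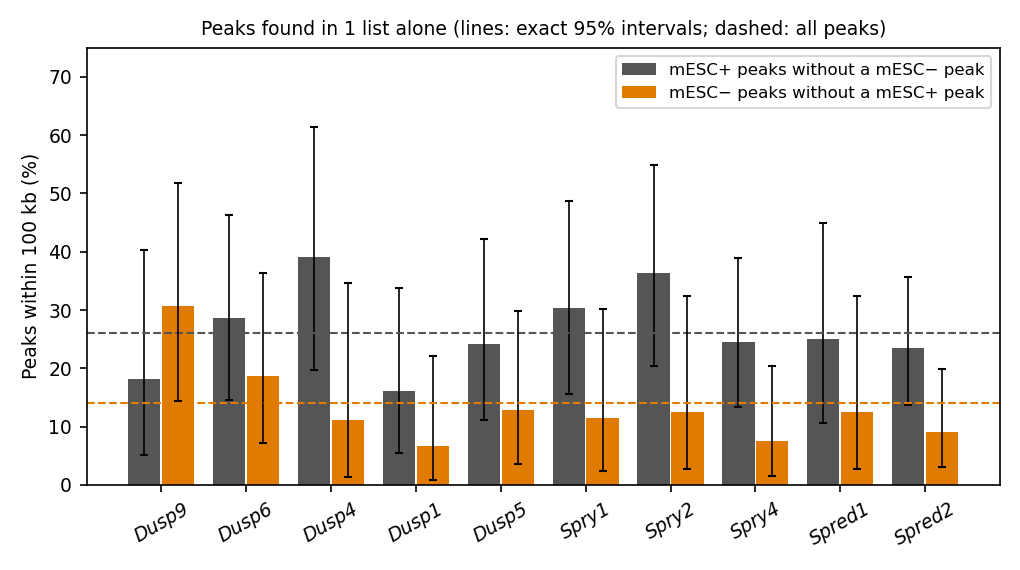
Percent of ATAC-seq peaks within 100 kb of each member (x axis) found in 1 list alone (y axis), for mESC+ peaks (grey) and mESC- peaks (orange), with exact 95% binomial intervals that cover counting error only and dashed lines at the percent over all peaks of each list. Dusp9, at 18.2 and 30.8%, is the one member whose mESC- bar is the taller.

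The other genes of the pathway, in lists drawn up with earlier results known, had no promoter past 1.5-fold, against 1.01% of all promoters higher in mESC- and 0.961% higher in mESC+. Over all promoters 54.7% had a ratio above 0. Of 20 genes of the cascade from ligand and receptor to ERK, 8 had a ratio above 0 and 12 below, with a median of -0.05. Of 13 further inhibitors, 12 had a promoter peak in both lists, 6 above and 6 below 0 with a median of 0.10, and Spred3 had one in the mESC+ list alone. Of 12 target genes of ERK, 8 were above and 4 below 0, with a median of 0.12. The lowest ratios belonged to Nf1, which encodes neurofibromin, with 11.1 in mESC+ and 7.01 in mESC- (ratio -0.57), to the scaffold gene Ksr1 with 17.1 and 11.3 (ratio -0.50), and to the repressor gene Erf with 7.76 and 5.70 (ratio -0.35). The highest were the adaptor gene Shc1 with 7.73 and 9.34 (ratio 0.37), the phosphatase gene Dusp8 with 6.17 and 7.42 (ratio 0.36) and the immediate early gene Ier3 with 6.31 and 7.56 (ratio 0.35). The RNA-seq table listed 3 of the 20 (15.0%), 3 of the 13 (23.1%) and 5 of the 12 (41.7%), against 9.04% of all protein-coding genes.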

How the data were processed

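RNA-seq, ATAC-seq and ChIP-seq libraries of E14 cells were compared between mESC+ and mESC-. Per the study's methods, RNA-seq reads were mapped to GRCm38 with BWA-MEM and ChIP-seq reads of these cells with STAR. The submitters' processing notes name STAR 2.5.1b without a role, so whether it was also used for RNA-seq is uncertain. The authors made normalized counts with DESeq2. The deposited signal per gene is the authors' mean normalized count over the 6 libraries. The fold changes and p-values of that table, and the p-values and clusters of the dynamic regions, are the authors' own comparisons and were not used, so no direction of any transcript is given. ATAC-seq reads were aligned to GRCm38 with BWA, duplicates were removed and peaks were called with MACS2 in each library, per the authors. The deposited fold enrichment is a ratio of pileup to local background, with -log10 p and q beside it. The deposited fraction of the dynamic regions is an enhancer probability per state.

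The 10 members, the pathway lists and the motifs were chosen with earlier results of these data known. Genes and places came from GENCODE, starts and promoter sequences from RefSeq, all on GRCm38. Promoter sequences matched 7 members by symbol. Those of Dusp9, Dusp4 and Spry4 were not used here. The promoter peak of a gene is the strongest peak within 1 kb of a coding start. For a member the text names its promoter peak, its most extreme sites of both lists and its strongest peaks of 1 list alone, and of the pathway genes the 3 highest and 3 lowest. Ratios were centred on the median site. Intervals are Clopper-Pearson at 95%, from SciPy 1.17.1 with pandas 2.3.3 in Python 3.11.15. The counting code passed 22 of 22 checks on simulated peaks. Motifs were searched without mismatch on both strands: direct repeats of RARA::RXRA with spacing 5 or 2, TTCNNNGAA of STAT, ATGCAAAT, CCGGAAG of ETS factors, TGACGTCA, TGANTCA and the CArG box. Alternatives were another overlap, peak cut-off, distance, promoter window, centring, fold and measure of height.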

Additional observations from a re-analysis of the deposited data

How the results depend on the processing

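With an overlap of 50% of both peaks, the share of peaks near the members without a partner was 36.2% for mESC+ (35.0% over all peaks) and 26.8% for mESC- (24.9% over all peaks). With a -log10 q of at least 10 these shares were 2.72% (3.17% over all peaks) and 0% (0.711% over all peaks). Within 20 kb the mESC- share was 18.8% (24 of 128 peaks, against 14.1% over all peaks) and the mESC+ share 25.7% (26.1% over all peaks), and the number of dynamic regions was 0. At 2-fold, 0 sites were higher in mESC- and 1 in mESC+ (0.326 and 0.359% of all sites), and with -log10 p in place of fold enrichment 31 and 26 of 251 sites passed 1.5-fold (11.1 and 11.1% of all sites). The cause of these shifts was not tested. With the site of both lists closest to the RefSeq start, an alternative added after seeing the data, the median promoter ratio was 0.13, against 0.03 over all promoters, and the ratio at Dusp1 was 0.15 in place of -0.05. With a promoter window of 2.5 kb the ratio at Spred1 was 0.33 in place of 0.09. The other alternatives kept the direction of the promoter ratio of every member, though the median over the members lay below 0 without centring (-0.07, as over all promoters), with -log10 p (-0.03) and with centring on all promoters (-0.0016). With -log10 p the ratio was -0.36 at Dusp9, -0.87 at Dusp5 and -1.11 at Spry4.

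No paired analysis was possible because a single mean stands for all RNA-seq libraries, and each ATAC-seq list comes from 1 library. No replicate was left out for the same reason. Depth is unknown, so differences in sensitivity between the 2 ATAC-seq libraries, of which the mESC+ list is the longer, cannot be told apart from differences between the states.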
